A study of Mus musculus with 10 samples.

Results

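Heat shock chaperones are proteins that bind unfolded polypeptides and return them to a folded state, and cochaperones are the partners that steer them. The 39 genes described here encode cytosolic and mitochondrial chaperones, their cochaperones, a collagen chaperone of the endoplasmic reticulum and 2 heat shock transcription factors, and were taken as a list of gene symbols out of 47333 genes in the deposited count table. The list was chosen by measured values, namely how these genes vary together in CPM, and by how much, across the same 10 mice, KO and WT, so the size of that variation, the order of the mice and the sex and genotype differences below are descriptions and not independent tests. All 39 genes passed the filter on low counts, as did 18024 genes in all, and none of the 39 was at 0 in any mouse.

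RNA came from the right middle lobe of the lung of 10 untreated, 12-week-old mice on the C57BL/6J background. In 5 mice Bpifb1, the gene of a secreted airway protein of the BPI fold family, was knocked out (KO), and 5 were wild type (WT). The KO group held 1 male (KO replicate 1) and 4 females (KO replicates 2 to 5), and the WT group held 2 males (WT replicates 2 and 3) and 3 females (WT replicates 1, 4 and 5). Cages held mice of both genotypes, and how the KO allele was made is not given in the sources used here. Libraries held 21357452 to 28321361 estimated counts. Levels are given as CPM, a gene's counts scaled to a library of 1000000 counts. Because whole tissue was sampled, fewer cells of a type and less RNA per cell cannot be told apart.

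The labels were checked on 2 genes. Bpifb1 was at 0.217 to 1.26 CPM in the KO mice and at 28.1 to 79.6 CPM in the WT mice, with no overlap. Xist, the long noncoding RNA of the inactive X chromosome, was at 1.29 to 1.73 CPM in the 3 males and at 274 to 407 CPM in 6 of the 7 mice labelled female. KO replicate 5, labelled female, was at 1.78 CPM and had 0 counts over 4 Y-linked genes, of which every male had at least 2470 counts. Values below count this mouse as a female, and the sex differences are given again without it. Markers of the sampled tissue were present in every library: the summed level of 5 alveolar type 2 cell markers ran from 21449 to 27007 CPM and that of 4 club cell markers from 24311 to 31798 CPM.

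In the heat shock response, the transcription factor HSF1 forms trimers when unfolded proteins accumulate and binds heat shock elements, arrays of GAA units in alternating orientation, upstream of chaperone genes. HSP70 proteins bind short hydrophobic stretches in cycles of ATP hydrolysis that J-domain proteins start and nucleotide exchange factors end, and HSP90 receives partly folded clients, among them steroid receptors and kinases, from HSP70. In lung these proteins are made at all times in most cell types, and the inducible members are known to react quickly to heat, oxidants and handling of tissue.

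The element itself was looked for in the promoters of the members, from 250 bases before to 50 bases after each RefSeq start site (GRCm38.p6). Of the 39 genes, 32 had a promoter in the table. Hspa8, Hspa9, Hsp90aa1, Hsp90ab1, Cryab, St13 and Hsf1 had none there and were not searched. The search string for 3 alternating units was GAA, TTC and GAA with 2 free bases (NN) between neighbours, read on both strands, and a gene with overlapping matches counts as 1 gene. It was found in 5 of the 32 genes (15.6%), against 179 of 27025 genes with a promoter (0.662%). With 2 units (GAA and TTC in either order, 2 free bases apart, both strands, which every match of the longer string also holds) it was 15 of 32 genes (46.9%), against 17.0% of all genes. The 5 genes were Hspd1, Hspe1, Dnajb6, Hsph1 and Chordc1, of which Hsph1 carried its match after the start site and Chordc1 across it. These stretches are shown because they carry the longest arrays, with the units of the element in capitals, each 5′ to 3′ on the strand of its gene:

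Hspe1 (chr1:55088024-55088113, plus strand; the same element lies upstream of an Hspd1 start site): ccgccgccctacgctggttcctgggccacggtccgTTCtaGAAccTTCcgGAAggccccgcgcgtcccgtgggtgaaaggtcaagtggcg
Dnajb6 (chr5:29735823-29735882, plus strand): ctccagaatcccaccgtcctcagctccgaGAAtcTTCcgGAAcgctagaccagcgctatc
Chordc1 (chr9:18292257-18292286, plus strand): caaccgGAAcgTTCggGAAaaTTCctGAAg
Hsph1 (chr5:149636279-149636308, minus strand): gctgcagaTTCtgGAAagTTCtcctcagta

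Hspd1 and Hspe1, the subunits of the mitochondrial chaperonin, lie head to head on chromosome 1, and RefSeq gives Hspd1 more than 1 start site. From one of them, 215 bases separate it from the Hspe1 start site and the element lies upstream of both genes, whereas another, at 55088243, lies inside Hspe1, so that the element is downstream of it. Hspa1b, Hspa1a and Hspb1 are shown because they differed widely between mice and matched the 2-unit string alone:

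Hspa1b (chr17:34959239-34959388, minus strand): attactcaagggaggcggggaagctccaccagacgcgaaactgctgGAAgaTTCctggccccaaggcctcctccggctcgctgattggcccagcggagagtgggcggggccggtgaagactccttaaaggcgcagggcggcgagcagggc
Hspa1a (chr17:34972157-34972306, minus strand): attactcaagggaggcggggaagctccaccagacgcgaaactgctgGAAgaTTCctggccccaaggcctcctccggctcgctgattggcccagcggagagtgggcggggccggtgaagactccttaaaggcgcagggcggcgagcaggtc
Hspb1 (chr5:135887779-135887868, plus strand): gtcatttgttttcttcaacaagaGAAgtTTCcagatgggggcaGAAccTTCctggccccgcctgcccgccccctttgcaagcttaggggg

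The Hspa1a and Hspa1b promoters differed at 4 of 300 bases, and at 1 of the 150 bases shown. A match is a run of letters and not a site shown to be bound. The ratio of the highest to the lowest mouse had a median of 2.10 in the 5 genes with 3 units and 1.74 in the 27 others, and of 1.98 in the 15 genes with 2 units and 1.45 in the 17 without. Dnajb6 carried 3 units and had the smallest such ratio of all 39 genes (1.13), whereas Dnajb1, the J-domain partner of HSP70, had none and a ratio of 2.72.

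Across the 10 mice, the members did not move by equal amounts, but most had their high values in the same animals. The mean over members of the log2 CPM, less each gene's mean over mice, was 0.54 in KO replicate 1, 0.46 in WT replicate 2 and 0.13 in WT replicate 3, the 3 males. The females followed at -0.00 (KO replicate 4), -0.08 (KO replicate 3), -0.13 (WT replicate 1), -0.14 (KO replicate 2), -0.22 (KO replicate 5), -0.23 (WT replicate 4) and -0.32 (WT replicate 5). Of the 39 genes, 35 had their highest value in KO replicate 1 or WT replicate 2, as did 29.3% of all tested genes. The exceptions were Hspb6 and Hsf2 (highest in WT replicate 5), Dnajb5 (KO replicate 4) and Hspbp1 (WT replicate 1). Among females, 21 members were highest in KO replicate 4 (9.37% of all genes) and 18 were lowest in WT replicate 5 (13.6%). Total counts did not follow this order: counted from the smallest library, KO replicate 1 ranked 8 of 10, WT replicate 2 ranked 3, WT replicate 3 ranked 6 and WT replicate 5 ranked 10.

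**Figure D1:**
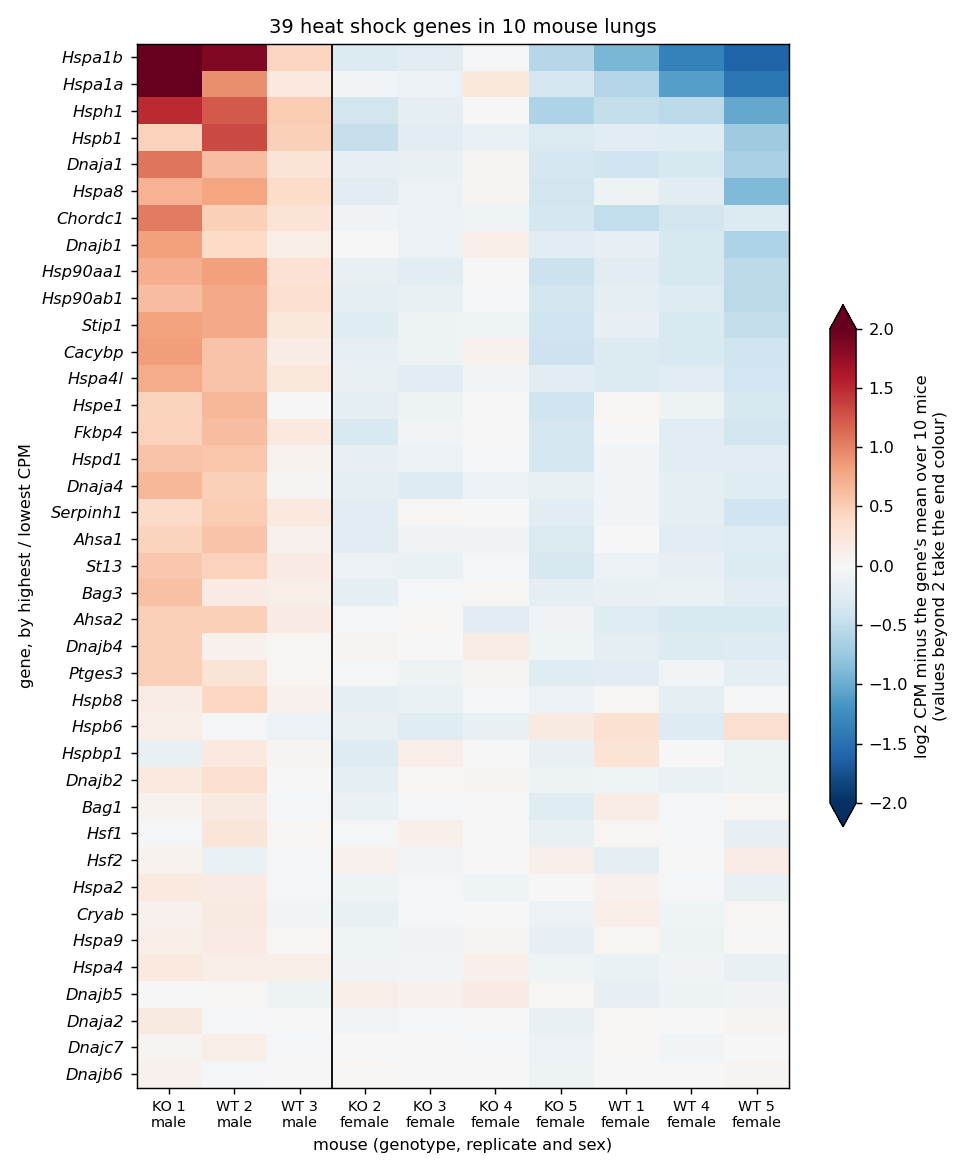
Heat map of log2 CPM (prior count 2) of each member less its mean over the 10 mice, with a row per gene, sorted by the ratio of highest to lowest mouse, and a column per mouse, red above and blue below the mean. The colour scale ends at ±2, which 2 values exceed. The columns of the males hold most of the red cells, and the rows of Hspa1a, Hspa1b and Hsph1 show the largest departures.

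The ratio of the highest to the lowest mouse ran from 1.13 (Dnajb6) to 19.3 (Hspa1b), with a median of 1.82 over the members. The median was 1.40 over all 18024 tested genes and 1.29 over the 11021 genes with a mean of at least 10 CPM, a level that all 39 members reached. A ratio of at least 2 was found in 14 of 39 members and in 18.4% of all tested genes, many of them low and noisy, and a ratio of at least 3 in 6 members against 7.38%. Among the 11021 genes at 10 CPM or more, Hspa1b ranked 7 and Hspa1a ranked 8 by this ratio, Hsph1 ranked 26 and Hspb1 ranked 47. Within the 7 females alone the members' median was 1.28, and the highest ratios were 3.19 (Hspa1a), 2.97 (Hspa1b) and 2.05 (Hsph1). Over all tested genes the female median was 1.32, low and noisy genes included. It was not computed for the genes at 10 CPM or more, so these medians are not like for like.

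**Figure D2:**
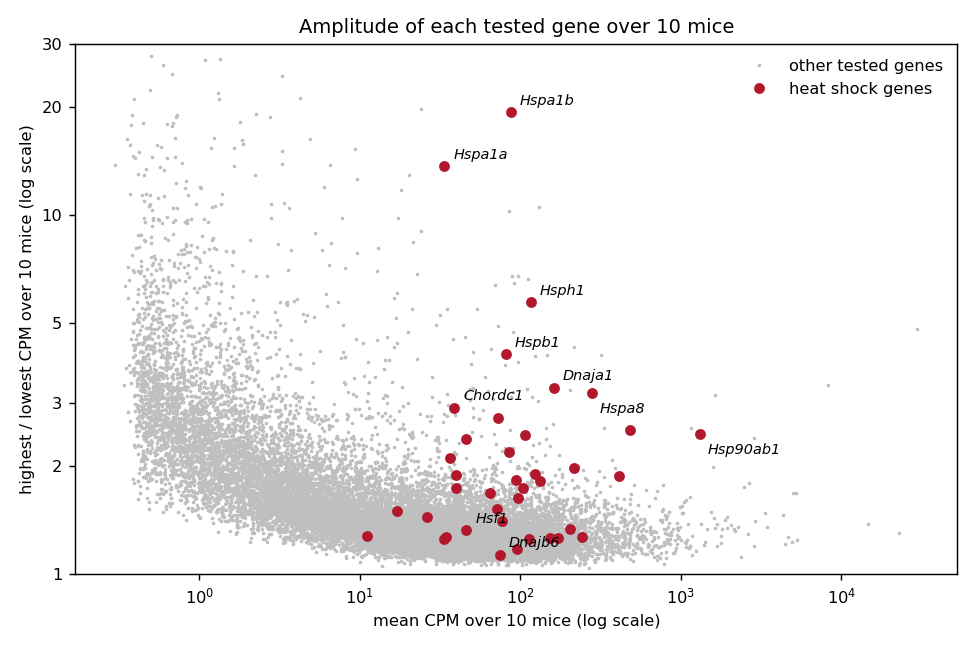
Ratio of the highest to the lowest mouse (log axis) against mean CPM over the 10 mice (log axis), with tested genes in grey and members in red, some labelled. Axes leave out 149 genes beyond the limits. Hspa1b and Hspa1a stand at 19.3 and 13.7, above other members, and Dnajb6 lies at the lower edge at 1.13.

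HSP70 proteins gave both the largest and some of the smallest differences. Hspa1b, the stress-inducible HSP70 (ENSMUSG00000090877, GRCm38 chromosome 17, 34956436 to 34959238, minus strand), stood at 349.8 CPM in KO replicate 1, 197.6 CPM in WT replicate 2 and 74.3 CPM in WT replicate 3. In KO females (replicates 2 to 5) it was at 45.3, 47.5, 53.7 and 37.0 CPM, and in WT females (replicates 1, 4 and 5) at 29.0, 21.6 and 18.1 CPM. Every male was above every female, and every KO female above every WT female. Males averaged 207 ± 138 CPM (SD, n = 3) and females 36.0 ± 13.6 CPM (SD, n = 7), a log2 difference of 2.73 (SE 0.29) in the model with genotype.

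Hspa1a, its neighbour and near-copy (ENSMUSG00000091971, chromosome 17, 34969190 to 34972156, minus strand), stood at 125 CPM in KO replicate 1, 47.8 CPM in WT replicate 2 and 28.8 CPM in WT replicate 3. KO females were at 24.0, 23.1, 29.1 and 19.6 CPM and WT females at 16.7, 11.6 and 9.12 CPM. KO replicate 4, at the top of the females, was just above WT replicate 3, so the sexes overlapped, whereas KO and WT females did not. The log2 difference between males and females was 1.98 (SE 0.24). Of the 50-base stretches of Hspa1b, 62.3% also occur in Hspa1a, and 58.8% of those of Hspa1a in Hspa1b. Reads were 50 bases long, so the split of counts between these genes is uncertain. Summed, the pair ran from 27.2 CPM in WT replicate 5 to 474.9 CPM in KO replicate 1, a ratio of 17.5.

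Hspa8, the constitutive cytosolic HSP70, stood at 428 CPM in KO replicate 1, 461 CPM in WT replicate 2 and 342 CPM in WT replicate 3, and in females between 144 and 277 CPM (median 228). All males were above all females, with a log2 difference of 0.92 (SE 0.17), which did not pass in edgeR (quasi-likelihood test, threshold of 0.05 on the adjusted p). Without WT replicate 5, the lowest mouse, the log2 difference was 0.80 (SE 0.11). Of its 50-base stretches 38.6% occur in other genes, so part of its counts may belong elsewhere. Hspa9, the mitochondrial HSP70, and Hspa2, known for its part in spermatogenesis, ran within 1.26-fold and 1.27-fold over the 10 mice, with log2 sex differences of 0.15 (SE 0.06) and 0.16 (SE 0.07).

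HSP110 proteins are distant HSP70 relatives that exchange nucleotide on HSP70 and help take apart aggregates. Hsph1, the heat-inducible one (chromosome 5, 149614287 to 149636376, minus strand), stood at 277 CPM in KO replicate 1, 230.5 CPM in WT replicate 2 and 139 CPM in WT replicate 3. KO females were at 76.5, 85.8, 99.1 and 63.7 CPM and WT females at 70.3, 67.5 and 48.3 CPM. No male overlapped the females, and the log2 difference was 1.66 (SE 0.19). Hspa4l stood at 137, 121 and 95.3 CPM in the same 3 males and between 62.4 and 78.3 CPM in females (median 70.4), a log2 difference of 0.79 (SE 0.08). Hspa4 kept the sexes apart by a narrow margin, with females from 155 to 184 CPM and the lowest male at 185 CPM (log2 difference 0.23, SE 0.05).

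Both cytosolic HSP90 genes were higher in every male than in every female. Hsp90aa1, the inducible form (chromosome 12, 110690605 to 110702728, minus strand), stood at 757 CPM in KO replicate 1, 806 CPM in WT replicate 2 and 559.9 CPM in WT replicate 3, and in females between 319 and 461 CPM (median 388). Hsp90ab1, the constitutive form (chromosome 17, 45567775 to 45573271, minus strand), stood at 1948, 2156 and 1577 CPM in these males and between 878 and 1248 CPM in females (median 1105). In both, WT replicate 2 was highest, unlike in Hspa1b. Log2 differences between the sexes were 0.92 (SE 0.11) and 0.84 (SE 0.10). Per kilobase of exon, Hsp90ab1 was the most abundant member (441 CPM per kb), followed by Serpinh1 (169), Cryab (163), Bag1 (150.3) and Hsp90aa1 (122), and Hsf2 the least (1.16). Of the 50-base stretches of Hsp90aa1, 47.5% occur in other genes.

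All 8 cochaperones of HSP90 and HSP70 passed that test between the sexes, each higher in males, as did 0.449% of all genes tested. Stip1, the adaptor that passes clients from HSP70 to HSP90, stood at 179 CPM in KO replicate 1, 171 CPM in WT replicate 2 and 117 CPM in WT replicate 3, and in females between 73.1 and 95.4 CPM (median 86.2). Chordc1, an HSP90-binding protein, stood at 75.5, 51.1 and 44.3 CPM in these males, at 35.1, 33.7, 34.4 and 28.6 CPM in KO females and at 26.0, 28.4 and 30.2 CPM in WT females. Its log2 sex difference was 0.94 (SE 0.09), and 0.76 (SE 0.10) without KO replicate 1. Neither gene overlapped between the sexes.

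Cacybp, a scaffold between ubiquitin ligases and S100 proteins that carries an HSP90-binding domain, stood at 78.7, 65.2 and 48.9 CPM in the males and between 33.1 and 46.6 CPM in females (median 36.4). St13, which binds and stabilises HSP70, stood at 189, 179 and 145 CPM in the males and between 104 and 127 CPM in females (median 118). Ahsa2, a relative of the HSP90 ATPase activator Ahsa1, stood at 54.1, 54.3 and 43.5 CPM in the males, at 38.4, 39.5, 33.3 and 37.1 CPM in KO females and at 33.0, 31.6 and 31.3 CPM in WT females. In these genes too the males lay above all females. Ahsa1 itself, Fkbp4, which links HSP90 to steroid receptors, and Ptges3, the p23 cochaperone, had log2 sex differences of 0.54 (SE 0.10), 0.62 (SE 0.11) and 0.40 (SE 0.08). Only in Ptges3 did a female (KO replicate 4, 99.3 CPM) exceed the lowest male (98.1 CPM).

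J-domain proteins, which start ATP hydrolysis by HSP70, were divided. Of 9, 4 passed the same test, each higher in males (0.449% of all genes tested). Dnaja1 stood at 319.8 CPM in KO replicate 1, 232 CPM in WT replicate 2 and 184 CPM in WT replicate 3, at 135, 137, 158 and 119.8 CPM in KO females and at 115, 121 and 96.7 CPM in WT females. The sexes did not overlap, and the log2 difference was 1.04 (SE 0.10). Dnajb1, the main inducible J-domain protein, stood at 124, 91.8 and 75.6 CPM in the males, at 70.2, 64.3, 76.0 and 59.7 CPM in KO females and at 62.6, 55.9 and 45.6 CPM in WT females. KO replicate 4 was level with WT replicate 3, and the log2 difference was 0.72 (SE 0.11). Dnaja4 (log2 difference 0.60, SE 0.10) and Dnajb4 (0.36, SE 0.06) also passed.

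The other J-domain members differed less. Dnajb2 had a log2 sex difference of 0.26 (SE 0.07), and Dnaja2, Dnajc7, Dnajb6 and Dnajb5 were between 0.00 and 0.08. Dnajb6, which suppresses aggregation of polyglutamine proteins, and Dnajc7, which also binds HSP90, had the smallest ratios of highest to lowest mouse among the members, 1.13 and 1.17. Over the J-domain proteins this ratio ran from 1.13 to 3.31.

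None of the 4 small heat shock proteins, which hold unfolded proteins without using ATP, passed edgeR's test between the sexes (0.449% of all genes, higher in males). The DESeq2 Wald test called Hspb1 and Hspb8 (1.55% of all genes, higher in males). Hspb1 stood at 103 CPM in KO replicate 1, 187 CPM in WT replicate 2 and 104 CPM in WT replicate 3, at 54.4, 64.5, 68.2 and 60.9 CPM in KO females and at 63.6, 63.2 and 45.5 CPM in WT females. All males were above all females (log2 difference 1.11, SE 0.21), but WT replicate 2 was far above the other males. Of the 50-base stretches of Hspb1, 48.8% occur in Hsp25-ps1, a pseudogene copy. Hspb8, partner of Bag3 in selective autophagy, had a log2 difference of 0.30 (SE 0.07), with no overlap between the sexes. Cryab and Hspb6, which are abundant in muscle, were at 0.09 (SE 0.07) and -0.04 (SE 0.14). Beside these, 6 smooth muscle markers summed to 892 to 963 CPM in males and 897 to 1241 CPM in females, and 6 cardiac muscle markers to 658 to 1214 CPM and 447 to 1190 CPM. Their part in the small heat shock values was not tested.

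**Figure D3:**
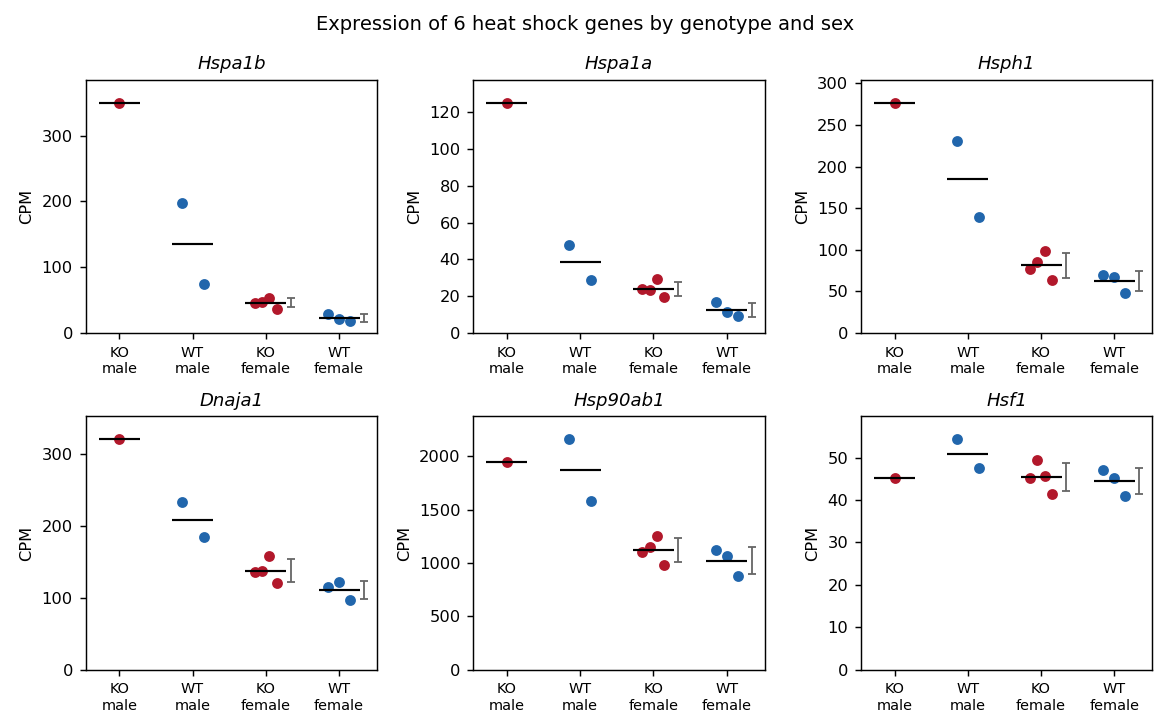
CPM of 6 members in each mouse (points, linear axis from 0; red KO, blue WT), by genotype and sex. Horizontal lines are group means and bars are the SD, drawn for groups of 3 or more mice. In Hspa1b the males sit at 74.3 to 349.8 CPM above all females, and in Hsf1 the groups overlap.

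Subunits of the mitochondrial chaperonin moved by like amounts. Hspd1 ran from 94.2 to 117 CPM in females and from 127 to 179 CPM in males (log2 difference 0.60, SE 0.10), and Hspe1 from 26.7 to 36.3 CPM in females and from 35.1 to 56.2 CPM in males (0.54, SE 0.14). Hspd1 passed edgeR's test and Hspe1 did not, while the DESeq2 Wald test called both. A difference between the genes was not tested. Among nucleotide exchange factors, which release clients from HSP70, Bag3 passed (log2 difference 0.46, SE 0.08; 0.31, SE 0.08, without KO replicate 1), whereas Bag1 was at 0.08 (SE 0.07) and Hspbp1 at -0.00 (SE 0.10). Serpinh1, the collagen chaperone of the endoplasmic reticulum, was at 524 ± 56.7 CPM in males (SD, n = 3) and 366 ± 37.3 CPM in females (SD, n = 7), and passed (0.54, SE 0.09). Beside it, 5 fibroblast markers summed to 1906 to 2313 CPM in males and 2212 to 2597 CPM in females.

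The transcription factors overlapped between the sexes. Hsf1, the main regulator of the response (chromosome 15, 76477422 to 76501913, plus strand), stood at 45.1 CPM in KO replicate 1, 54.3 CPM in WT replicate 2 and 47.5 CPM in WT replicate 3, and in females between 41.0 and 49.4 CPM (median 45.3). KO replicate 1, highest in Hspa1b, was close to the female median for Hsf1. Hsf2 stood at 11.7, 10.1 and 10.9 CPM in the males and between 9.67 and 12.3 CPM in females (median 11.2). Log2 sex differences were 0.11 (SE 0.07) and -0.03 (SE 0.09), and RNA level does not show the activity of these factors.

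Counted over all roles, 21 of 39 members differed between the sexes at an adjusted p under 0.05, each higher in males, against 0.449% of all genes tested (edgeR's quasi-likelihood fit, Benjamini-Hochberg over 18024 genes). DESeq2 called 27 members, each higher in males (1.55% of all genes), and limma-voom 21 (0.444%). Beyond edgeR's calls, DESeq2 called Hspa4, Hspa8, Hspb1, Hspb8, Hspe1 and Dnajb2. At an unadjusted p under 0.05 there were 29 members, each higher in males (7.34% of all genes). The median log2 sex difference was 0.54 over the members and -0.01 over all genes, and 36 of 39 were above 0. In 21 members all males lay above all females (2.26% of all genes), and in 12 the order was KO replicate 1, WT replicate 2, WT replicate 3 and then every female (0.566%). These shares restate how the list was chosen, so nothing is read from their size.

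The calls rested on KO replicate 1. Without this mouse 0 of 39 members, and 0 of all genes tested, passed by edgeR's test. In that fit 27 members were at an unadjusted p under 0.05 (10.6% of all genes) and the median log2 difference was 0.49. Among WT mice alone, where 2 males met 3 females, 0 members passed, 27 were at an unadjusted p under 0.05 (8.47% of all genes) and the median was again 0.49. In these WT mice 27 members had both males above all females (11.7% of all genes). KO replicate 1 was above all KO females in 34 members (26.4% of all genes). Without KO replicate 5, the mouse whose Xist level went against its label, the same 21 members passed, each higher in males (0.403% of all genes). No log2 sex difference of the 39 then moved by more than 0.06, and the median was 0.52. Hspa1b was at 2.68 (SE 0.30), Hspa1a at 1.92 (SE 0.24), Hsph1 at 1.61 (SE 0.17) and Dnaja1 at 1.01 (SE 0.10). This mouse was the highest female in 0 members and the lowest in 11, so leaving it out changes no count of members whose males lie above all females. Sex rests on 3 males, and cage and order of collection were not given, so that sex and such differences between these mice cannot be told apart.

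**Figure D4:**
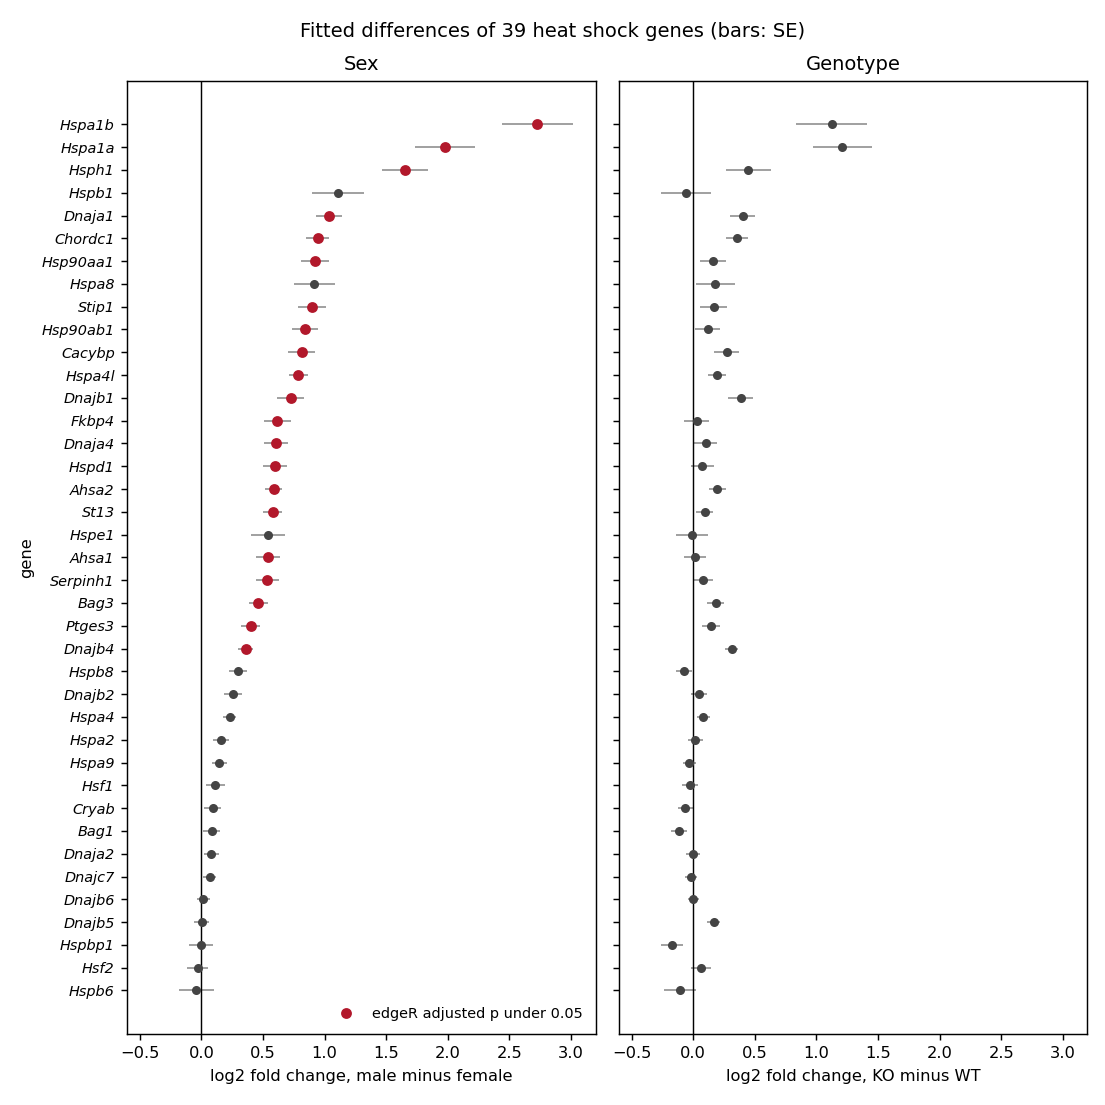
Log2 differences of each member (points) with the standard error (bars), males minus females on one panel and KO minus WT on the other, from the model holding both terms. Red points passed an adjusted p under 0.05 by edgeR. The male-female panel reaches 2.73 (Hspa1b) and has 21 red points, and the KO-WT panel has none.

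Between KO and WT mice, with sex in the model, 0 of 39 members were called by edgeR at an adjusted p under 0.05, against 0.0222% of all genes. At an unadjusted p under 0.05 there were 12 members, each higher in KO mice (8.92% of all genes): Hspa1a, Hspa1b, Hspa4l, Hsph1, Dnaja1, Dnajb1, Dnajb4, Dnajb5, Bag3, Chordc1, Ahsa2 and Cacybp. The DESeq2 Wald test called 6 (Hspa1a, Hspa1b, Dnaja1, Dnajb1, Dnajb4 and Chordc1), each higher in KO (1.40% of all genes), and limma-voom called 0. Without a filter on low counts edgeR called 1, Dnajb4 (0.163% of all genes). Hspa1a had the largest log2 difference, 1.21 (SE 0.24), followed by Hspa1b at 1.12 (SE 0.29), Hsph1 at 0.45 (SE 0.18), Dnaja1 at 0.40 (SE 0.10) and Dnajb1 at 0.38 (SE 0.10). The median over the members was 0.08, and -0.00 over all genes.

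The direction of many members depended on the sex term. Without it, 16 of 39 members were above 0 in place of 28, the median was -0.01, and the log2 difference of Hspa1b was 0.65 (SE 0.95). Others moved less, with Hspa1a at 0.97 (SE 0.70), Dnajb1 at 0.25 (SE 0.25), Dnajb4 at 0.24 (SE 0.10) and Dnajb5 at 0.16 (SE 0.05), and all 12 genes named above stayed above 0. No member had all KO mice above all WT mice (0.960% of all genes). Among females alone, 4 KO against 3 WT, 0 members passed and 8 were at an unadjusted p under 0.05, each higher in KO (13.7% of all genes in either direction): Hspa1a, Hspa1b, Dnaja1, Dnajb1, Dnajb4, Dnajb5, Chordc1 and Ahsa2. There Hspa1b differed by 1.01 (SE 0.18) and Hspa1a by 0.95 (SE 0.22). KO females lay above all WT females in 5 members, Hspa1a, Hspa1b, Dnajb4, Dnajb5 and Ahsa2 (6.27% of all genes). Sums of the members overlapped between the genotypes, at 4469 to 8219 CPM in KO and 4234 to 8196 CPM in WT mice. Immediate early genes, which rise within minutes of a stimulus or of handling, summed higher in KO mice. The 10 genes summed to 1039 to 1241 CPM in KO mice and 637 to 997 CPM in WT mice. Their median log2 difference was 0.57. By edgeR 6 of 10 were at an unadjusted p under 0.05 (17.0% of all genes in either direction) and 0 passed adjustment (0.0222%). WT replicate 5 was the lowest mouse for these genes as well, at -0.81 on the centred log2 scale. WT replicates 2 and 3, however, were at -0.21 and -0.35, against 0.46 and 0.13 for the members. KO replicate 5 was at 0.44, against -0.22 for the members. The part of the immediate early genes in the chaperone values was not tested.

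Whether the sex difference was alike in both genotypes was asked with an interaction term, in which the KO males are 1 mouse. By edgeR 0 members passed (0.0111% of all genes), and 4 were at an unadjusted p under 0.05, each with a larger male excess in KO (3.13% of all genes). These were Chordc1 at 0.44 (SE 0.16) on the log2 scale, Dnaja4 at 0.40 (SE 0.17), Bag3 at 0.37 (SE 0.12) and Dnaja2 at 0.27 (SE 0.10). The term turned on single WT males. Without WT replicate 2, 14 members were at an unadjusted p under 0.05 (5.49% of all genes), each with a larger male excess in KO, and the median over members was 0.25, against 0.13 with all mice. Without WT replicate 3 there were 3 (8.38% of all genes), 2 of them with a larger male excess in KO, and the median was -0.00. By edgeR 0 members passed adjustment in either case.

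Other genes of protein folding were then set beside the members. Of 52 further cytosolic, nuclear and mitochondrial chaperones and cochaperones, among them the CCT ring and prefoldin, 49 were tested. Grpel2, a nucleotide exchange factor of the mitochondrial HSP70, alone passed between the sexes (0.449% of all genes, higher in males). It was at 40.6 to 41.9 CPM in males and 30.8 to 37.1 CPM in females (log2 difference 0.33, SE 0.06). At an unadjusted p under 0.05 by edgeR, 12 genes were higher in males (7.34% of all genes) and 3 lower. Over all genes 15.1% reached that p in either direction. The median log2 sex difference of the list was 0.02.

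Endoplasmic reticulum chaperones and genes of the unfolded protein response were higher in males in all 19 genes measured, by a median log2 difference of 0.30. All 19 were at an unadjusted p under 0.05 by edgeR (7.34% of all genes, higher in males). Of these 4 passed adjustment by edgeR (0.449% of all genes, higher in males). They were Hspa5, the HSP70 of the endoplasmic reticulum, at 0.54 (SE 0.08), and Hyou1, its nucleotide exchange factor, at 0.38 (SE 0.07). The others were Hsp90b1, the HSP90 of that compartment, at 0.35 (SE 0.06), and Calr, a lectin chaperone, at 0.32 (SE 0.06). Hspa5 stood at 655 CPM in KO replicate 1, 716 CPM in WT replicate 2 and 581 CPM in WT replicate 3, and in females between 403 and 485 CPM. The list summed to 4227 to 4751 CPM in males and 3377 to 3808 CPM in females, with no overlap.

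Of the 2 cold-inducible RNA-binding proteins, which are known to fall as temperature rises, Cirbp lay the other way without overlap. Cirbp was at 38.2 to 40.0 CPM in males and 43.4 to 75.2 CPM in females, with its highest value in WT replicate 5 (log2 difference -0.56, SE 0.12), and did not pass adjustment. Rbm3 overlapped, at 70.3 to 100.7 CPM in males and 79.7 to 109 CPM in females (-0.17, SE 0.12). Its highest male was KO replicate 1, the mouse highest for the members. Of the cell type markers, red cell genes were higher in males in 5 of 5 at an unadjusted p under 0.05 by edgeR (7.34% of all genes). They summed to 13051 to 19495 CPM in males and 11525 to 14063 CPM in females. Rtkn2, 1 of 4 alveolar type 1 cell markers, passed at 0.33 (SE 0.06), against 0.449% of all genes, higher in males. Glucocorticoid-responsive genes summed to 1122 to 1201 CPM in males and 586 to 1181 CPM in females, and core clock genes to 1277 to 1384 CPM and 1175 to 1551 CPM. The part of these genes in the chaperone values was not tested.

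**Figure D5:**
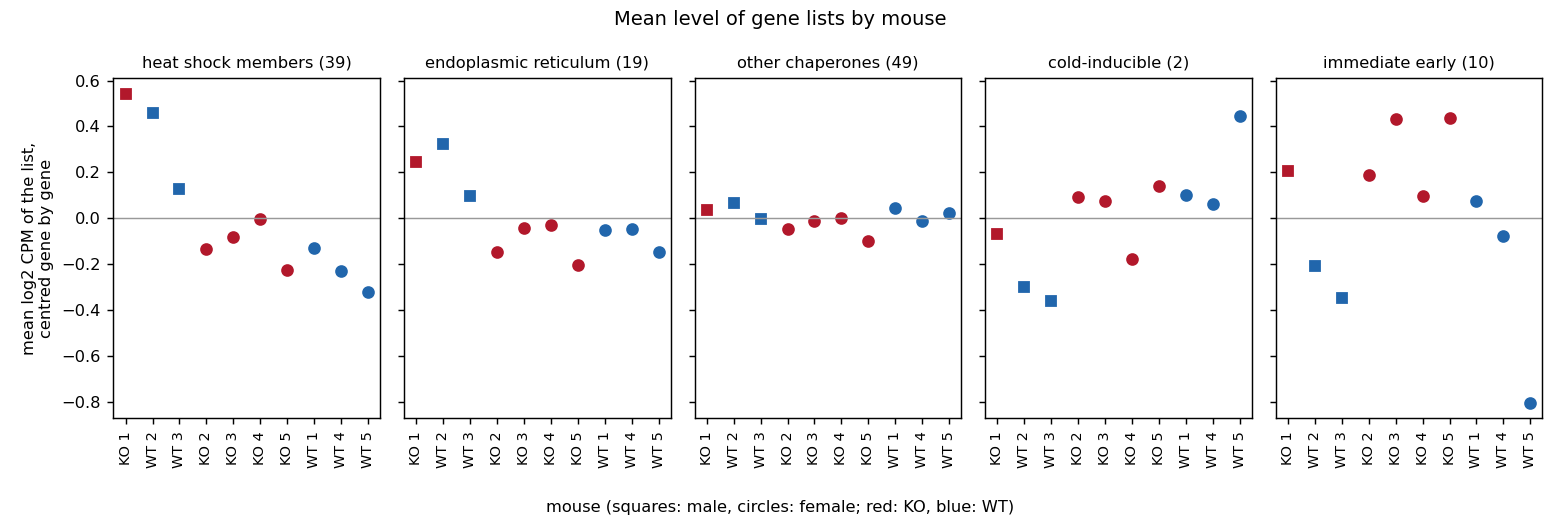
Mean over the genes of each list of log2 CPM less the gene's mean over mice (vertical axis), for each of the 10 mice (squares males, circles females; red KO, blue WT). For the 39 members the males sit at 0.13 to 0.54 and the females at -0.32 to -0.00, and the endoplasmic reticulum list keeps the sexes apart over a narrower range.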

How the data were processed

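RNA from the right middle lung lobe of 10 mice was sequenced as stranded mRNA libraries with single reads of 50 bases, per the labels' protocols. STAR 2.6.0, Salmon 0.9.1, FastQC, MultiQC and the build mm10 (GRCm38) are named, per the submitters' processing notes, and the gene annotation is not given in the sources used here. The values are estimated counts per gene, deposited as 1 unscaled table with 47333 genes. Among values above 0, 30.1% differed from a whole number by more than 0.01. The table as received holds 0 genes of the mitochondrial chromosome, and 0 columns lacked a sample. Gene symbols, positions and lengths were read from GENCODE M21 (GRCm38), which matched 47281 identifiers and left 52 unmatched.

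Estimated counts were rounded. Genes were kept by filterByExpr, grouped by genotype (minimum count 10, minimum total 15). Genes counted in the 3 males alone, such as Y-linked genes, fall below this filter, and the highest log2 sex difference tested was 2.87. The test was edgeR's quasi-likelihood test with TMM scaling, a robust fit and terms for genotype and sex (edgeR 4.0.16, R 4.3.3). It was two-sided, and genes were called at a Benjamini-Hochberg adjusted p under 0.05. The SE of a log2 difference is its size over the square root of the F statistic. Settings tried in their place were DESeq2 size factors and Wald test (DESeq2 1.42.0), the voom method of limma 3.58.1, no filter, no sex or no genotype term, females alone and each mouse left out. WT mice alone was added after seeing the data. The labels do not say whether the 10 samples were prepared separately beyond being different mice, so spread between them holds biological and technical parts. Depth (3 counts equal 0.104 to 0.143 CPM) covers counting error only.

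The members and lists were chosen with earlier results of these data known. Values of single mice are given for the 10 members with the largest ratio of highest to lowest CPM and up to 12 called members by smallest p. Hspa1a, Hspa1b, Hspa8, Hsp90aa1, Hsp90ab1, Hsf1 and Hsf2 were always included, which made 17 members. In some of these only the males are listed singly, and the females are given as a range and median. From the lists, called genes, Cirbp and Rbm3 are named. Lists for skeletal muscle, ciliated, endothelial, macrophage, T and NK, B, neutrophil, adipocyte and mesothelial cells held 0 genes that passed by edgeR between sexes or genotypes. Protein sequences were not analysed here. A short list of other heat shock targets is not reported here.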

Additional observations from a re-analysis of the deposited data

Results flagged for a closer look

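Every member was examined within the KO mice (5), the WT mice (5) and all females (7), each a set. The gap between an extreme mouse and its nearest neighbour was set against the range of the group. Of 117 such sets, 18 had a mouse that stood apart by Dixon's criterion (15.4%), against 5.08% of the 54072 sets over all tested genes. Chance flags about 1 in 20 sets, the sets share mice and genes, and the members were chosen by their variation across these mice, so nothing is read from this share.

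In 15 of them the mouse was KO replicate 1, the only male of the KO group, above the 4 KO females. Its levels were 125 CPM for Hspa1a, 349.8 CPM for Hspa1b, 137 CPM for Hspa4l, 277 CPM for Hsph1, 1948 CPM for Hsp90ab1, 103 CPM for Hspb1 and 179 CPM for Hspd1. Among J-domain proteins they were 319.8 CPM for Dnaja1, 61.2 CPM for Dnaja4 and 124 CPM for Dnajb1. Among cochaperones they were 154 CPM for Bag3, 179 CPM for Stip1, 189 CPM for St13, 75.5 CPM for Chordc1 and 125 CPM for Ahsa1. In WT mice, the male WT replicate 2 stood apart for Hspe1 (56.2 CPM) and Dnajb2 (94.9 CPM). Among females, KO replicate 4 stood apart for Hspa4 (184 CPM).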

How the results depend on the processing

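Over the settings tried for the 17 named members, 270 of 272 log2 sex differences moved by less than 1 SD of the gene between mice (after genotype and sex), 2 moved by more (Chordc1 without KO replicate 1 and in WT mice alone) and no called difference changed sign. For genotype 265 of 272 moved by less than that SD, and the 7 that moved by more did so without the sex term (Hspa1b, Hspa4l, Hsph1, Hsp90aa1, Hsp90ab1, Hspb1 and Ahsa2).

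The number of genes called between KO and WT was 4 with edgeR, 50 without a filter, 346 by the DESeq2 Wald test, 2 by limma-voom and 2 to 18 with a mouse left out (18 without WT replicate 3). Members called were 0, 1 without a filter (Dnajb4), 6 by DESeq2 and 0 with any mouse left out. Between the sexes, 105 genes were called, 197 without a filter, 436 by DESeq2, 41 without the genotype term, 1 in WT mice alone and 0 to 195 with a mouse left out, with 0 without KO replicate 1, 46 without KO replicate 2, 43 without WT replicate 2 and 195 without WT replicate 4. Members called were 21, 27 by DESeq2, 21 by limma-voom, 0 in WT mice alone and 0 to 23 with a mouse left out. The count without KO replicate 1 was 0, and without WT replicate 2 it was 14. The promoter motif was found in 15 members with 2 units in place of 5 with 3. The cause of these changes was not tested, beyond the fewer mice or genes that a setting uses.

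The median ratio of highest to lowest mouse was 1.72 to 1.82 with a mouse left out and 1.28 in females alone. No paired analysis was possible because the labels link no KO mouse to a WT mouse. The replicate numbers used here follow the order of the samples within each genotype and pair no mice. Members that share at least 38.6% of their 50-base stretches with other genes (Hspa1a, Hspa1b, Hspa8, Hsp90aa1, Hspb1 and Hspd1) may hold counts of their copies. To a lesser degree this holds for Ptges3 (19.6%), Hspe1 (18.4%), Dnajb6 (17.7%) and Dnaja1 (11.9%). Having 1 KO male and 3 males in all limits every statement on sex.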
